A study of Danio rerio with 8 samples.

Results

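Regions of open chromatin that were listed at 8 somites and not at 36 hours post fertilization (hpf) were examined in whole zebrafish embryos. Peaks of 4 ATAC-seq lists, 1 per genotype and stage, were merged into regions wherever they overlapped by at least 1 bp. A region was taken as 8-somite-only when it held a peak of wild-type (WT) and of tp63-/- embryos at 8 somites and none of either genotype at 36 hpf. On chromosomes 1 to 25, leaving out chromosome 4 from 30 Mb on, this gave 10941 of 133688 regions, which is 8.18% (95% interval 8.04 to 8.33). The 8-somite-only regions were thus chosen by measured values, the presence of peaks in these lists, and their 8-somite values and their absence at 36 hpf are given as a description. A further 441 regions with the same listing lay on chromosome 4 beyond 30 Mb (149) or on scaffolds (292) and were left out.

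The study made 8 libraries, 2 per group, to follow chromatin accessibility in embryos with and without p63. At 8 somites, each library came from a single embryo of tp63+/- parents that was genotyped after tagmentation, and the groups were WT and tp63-/-. At 36 hpf, each library came from a pool of 5 WT or tp63-/- embryos, of which a counted portion of the cells was used, whereas the whole lysate was used at 8 somites. Fish were of the AB and Tübingen strains. The mutation is a small deletion made with CRISPR-Cas9 in an exon shared by the isoforms of the gene, which gives a premature stop. Embryos were freed of chorion and yolk and lysed whole, so every list mixes all tissues of the embryo, and neither the genotype nor any tissue could be checked from peak lists. In whole embryos, fewer cells with an open region and a less open region in each cell cannot be told apart. Stage and the kind of input (single embryo or pool) went together and cannot be told apart.

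ATAC-seq uses the Tn5 transposase, which cuts and tags DNA where nucleosomes leave it exposed, so that reads collect at active promoters and at enhancers. Zebrafish embryos at 8 somites are in early segmentation, when germ layers have been laid down and tissue precursors are being specified, whereas at 36 hpf most organ rudiments have formed and cells are differentiating. Many enhancers are open for part of development and close as precursors become differentiated cells. p63 is a transcription factor of the p53 family and a main regulator of the epidermis.

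The 8-somite lists held 96625 peaks in WT and 79893 in tp63-/-, and the 36 hpf lists held 84703 and 76556. Each list was built from both replicates of its group, so no value per embryo and no read depth per library was at hand. Differences could not be set against the spread between embryos, no test between groups was possible, and the intervals (95%, Wilson for a single share) cover counting error only. Regions near one another are not independent, which these intervals do not cover either.

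Of the 61719 regions with a peak of both genotypes at 8 somites, 17.7% (17.4 to 18.0) had no peak at 36 hpf, and that set is the 8-somite-only regions. In the opposite direction, 7802 of 58042 regions with a peak of both genotypes at 36 hpf had no 8-somite peak, which is 13.4% (13.2 to 13.7). The order of these counts depended on the length of the lists. With all lists shortened to the length of the shortest there were 8940 regions of 8 somites only and 8943 of 36 hpf only by -log10 p-value, and 8776 and 8803 by fold enrichment. Under a limit of 0.01 on the irreproducible discovery rate (IDR), which sets how well peaks agree between replicates, they numbered 6016 and 6576. Regions in all 4 lists numbered 41041. A 36 hpf peak of WT alone was found in 5606 regions with both 8-somite peaks, and one of tp63-/- alone in 4131. Almost all 8-somite-only regions were simple, with 10846 made of 1 peak per genotype, 94 of 3 peaks and 1 of 4. Their median width was 344 bp, from 139 to 1670 bp, and 75 were 800 bp or wider.

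Accessibility in the 8-somite-only regions was modest. The fold enrichment given by the authors, a ratio of signal to background at the peak, had a median of 7.30 in the WT list (25th to 75th percentile 6.26 to 8.58, highest 18.6). In the tp63-/- list the median was 6.65 (5.75 to 7.66, highest 18.0). Regions in all 4 lists had 8-somite medians of 9.87 in WT and 8.67 in tp63-/-. Peaks were also ranked within their list by -log10 p-value, and a rank is given as a percent of the list, with low values for strong peaks. The median rank of the 8-somite-only regions was 59.5% in WT and 66.6% in tp63-/-, against 24.3% and 29.6% for regions in all 4 lists. Regions listed at 8 somites only therefore came mainly from the weaker parts of both 8-somite lists.

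The relation to strength was graded over the whole range. Each region with both 8-somite peaks was placed by the weaker of its 2 ranks in bands of 10% of the list. In the strongest band, 13 of 6701 regions had no 36 hpf peak (0.194%, 0.113 to 0.332) and 98.9% were in all 4 lists. The share without a 36 hpf peak was 13.6% in the 5th band (897 of 6572 regions) and 19.3% in the 6th (1228 of 6372). In the weakest band it was 46.6% (2089 of 4481, 45.2 to 48.1), above the 29.6% of that band in all 4 lists. Regions with a peak in 1 of the 36 hpf lists made up 0.910% of the strongest band, 24.1% of the 9th and 23.8% of the 10th. Those 36 hpf peaks were weak as well, with a median rank of 70.0% for peaks of WT alone and 75.7% for peaks of tp63-/- alone, against 27.3% and 29.6% in regions of all 4 lists. A region near the threshold of a list can be missing from it while its signal lies just below, and how many of the 8-somite-only regions that applies to was not tested.

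**Figure D1:**
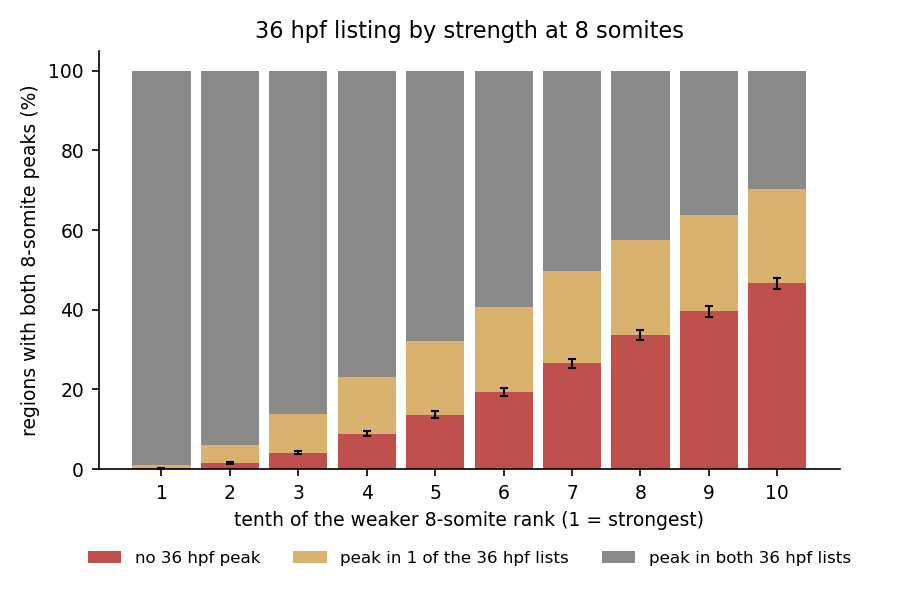
Stacked bars give the share (%) of regions with both 8-somite peaks that had no 36 hpf peak, a peak in 1 of the 36 hpf lists or a peak in both, for bands of 10% of the weaker 8-somite rank (1 is strongest). Black lines are 95% Wilson intervals of the share without a 36 hpf peak, which was 0.194% in the strongest band and 46.6% in the weakest.

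Some 8-somite-only regions were strong all the same. The upper 50% of both lists held 1890 of them and the upper 10% held 13, of which 12 were at least 1 kb from any 36 hpf peak. The 10 strongest that were at least 1 kb from any 36 hpf peak lay on 8 chromosomes. Their fold enrichment ran from 12.1 to 16.7 in WT (median 13.5) and from 11.7 to 18.0 in tp63-/- (median 13.9), and 4 of the 10 were higher in WT.

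Coordinates are those of the GRCz10 assembly, counted from 1. Which genes or gene parts lie at these positions was not analysed here, nor was their sequence, since annotation and sequence of that assembly were not used. Ordered by the weaker of its 2 ranks, the first region was chr9:53498753-53499144 (392 bp), with a fold enrichment of 13.6 in WT and 14.5 in tp63-/-. It held rank 5396 in WT and rank 3999 in tp63-/-, and the nearest 36 hpf peak was 23070 bp away. The second, chr7:10986085-10986491, had a fold enrichment of 15.9 in WT and 14.4 in tp63-/- and lay 4287 bp from the nearest 36 hpf peak. The third, chr19:1119487-1119764, had 13.6 in tp63-/- and was higher in WT by 0.15 on the log2 scale, with its WT and tp63-/- summits 8 bp apart. In all 3, the genotypes differed by less than the SD of the log2 ratio over all 8-somite-only regions (0.28).

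Chromosome 5 carried 3 of the 10, and 640 of all 10941 8-somite-only regions. With only 10 regions picked, whether 3 is more than its share was not tested. The region chr5:53689200-53689611 had the best WT rank of all 8-somite-only regions (1559) with a fold enrichment of 16.7 in WT and 12.5 in tp63-/-, where its rank was 5730. At chr5:9582163-9582561 the values were 12.1 in WT and 13.0 in tp63-/-, and the nearest region, 2378 bp away, was in all 4 lists. At chr5:45815910-45816236 they were 12.8 and 11.7, and its nearest region was another 8-somite-only region, with midpoints 4450 bp apart. Of these 3, the first had the largest difference between genotypes, with a log2 ratio of 0.41 toward WT.

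The highest tp63-/- value of any 8-somite-only region, 18.0, was at chr22:4998677-4999039, where WT had 16.7 and the summits were 1 bp apart. At chr12:4972558-4972985, WT had 13.0 and tp63-/- 14.3, and the nearest region, 1192 bp away, was a region of the opposite kind, listed at 36 hpf only. At chr10:39796019-39796408 the values were 12.2 in WT and 12.9 in tp63-/-, with a 36 hpf peak 1275 bp away. At chr13:44155895-44156242 they were 13.3 and 14.1, with the nearest 36 hpf peak 7512 bp away. These 4 regions were all slightly higher in tp63-/-, with log2 ratios of WT to tp63-/- between -0.14 and -0.09, which is inside the spread over regions.

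WT and tp63-/- embryos gave similar values at the 8-somite-only regions as a whole, which the rule itself favors by requiring a peak of both genotypes. Regions listed in a single 8-somite list and nowhere else, 18041 in WT and 8649 in tp63-/-, could not enter this comparison. The similarity therefore does not show that accessibility at 8 somites is unchanged in tp63-/- embryos. The median log2 ratio of WT to tp63-/- fold enrichment was 0.14 (SD over regions 0.28), and WT was higher in 7526 of the 10941 regions (68.8%, 67.9 to 69.6). Over all ranks, regions in all 4 lists had an offset in the same direction, with a median of 0.16 (SD 0.24) and WT higher in 75.4% (30958 of 41041). Among weaker ranks their offset was larger than that of 8-somite-only regions, as given below. An offset toward WT is thus shared by regions that were kept at 36 hpf, and whether it comes from depth, background or genotype was not tested. Across regions, log2 fold enrichment in WT and in tp63-/- correlated with r = 0.64 (n = 10941 regions that share both lists), against 0.86 over the 41041 regions in all 4 lists, which cover a wider range. WT and tp63-/- summits were a median of 20 bp apart in 8-somite-only regions and 14 bp in regions of all 4 lists.

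The offset varied less with the weaker rank than in regions of all 4 lists. Regions were divided by the weaker rank into bands of 25% of the list. That rank belongs to the same WT and tp63-/- peaks as the ratio. The strongest band requires a strong rank in both genotypes, whereas the weakest band requires a weak rank in either. How far this choice sets the medians and the SDs by band was not tested. From the strongest band to the weakest, the median log2 ratio of 8-somite-only regions was 0.14, 0.14, 0.13 and 0.16, whereas that of regions in all 4 lists was 0.12, 0.17, 0.19 and 0.26. The SD over 8-somite-only regions widened from 0.17 to 0.33 over the same bands, and that over regions in all 4 lists from 0.17 to 0.36. Ratios of neighbouring 8-somite-only regions were unrelated, with r = -0.04 over 497 neighbouring pairs up to 5 kb apart, 0.01 over 1623 pairs from 5 to 20 kb and 0.00 over 4585 pairs from 20 to 100 kb. By chromosome the median ratio ran from 0.11 on chromosome 24 to 0.18 on chromosome 23, and it was above 0 on every one of the 25 chromosomes.

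**Figure D2:**
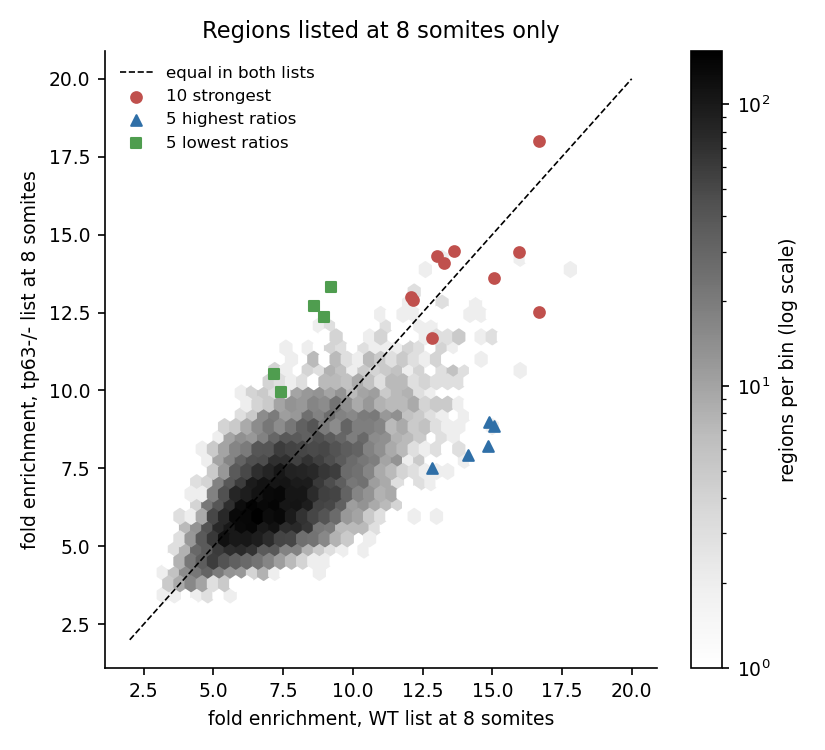
Fold enrichment in the WT list (x axis) against the tp63-/- list (y axis) at 8 somites for the 10941 regions listed at 8 somites only, with darker bins holding more regions (log scale) and the dashed line marking equal values. Circles are the 10 strongest regions, triangles the 5 highest and squares the 5 lowest ratios of WT to tp63-/- among the 1890 regions in the upper 50% of both lists. The cloud lies slightly toward WT, with medians of 7.30 and 6.65.

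The largest differences between genotypes among the 1890 regions in the upper 50% of both lists were selected for being extreme and have no replicate check. The highest ratio was at chr10:1569219-1569516, with a fold enrichment of 14.8 in WT and 8.23 in tp63-/- (log2 ratio 0.85). It was followed by chr13:32316153-32316458, with 14.1 and 7.92 (0.83). At chr1:1801525-1801972 the values were 12.8 in WT and 7.52 in tp63-/- (0.77). The regions chr9:55140973-55141531 and chr18:32964915-32965242 had ratios of 0.77 and 0.73. All 5 were between rank 7.44% and 17.3% in WT and between 34.1% and 45.4% in tp63-/-. The choice itself required a rank within the upper 50% in both genotypes.

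In the other direction the differences were smaller. The lowest ratio was at chr3:46030340-46030738, with 8.60 in WT and 12.7 in tp63-/- (log2 ratio -0.56). At chr13:48638781-48639134 the values were 7.18 and 10.5 (-0.55). At chr8:27679070-27679503 they were 9.23 and 13.3 (-0.53), and another 8-somite-only region lay 311 bp from it. The regions chr15:40978371-40978716 and chr9:45305804-45306355 had ratios of -0.46 and -0.42. Set against the median of 0.14 over these 1890 regions, the 5 highest ratios were 0.59 to 0.72 above it and the 5 lowest 0.55 to 0.70 below it, so that the extremes were about even on both sides of the common offset.

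The 8-somite-only regions were slightly farther from other open regions than regions in all 4 lists. The median gap to the nearest other region was 3083 bp, compared with 2511 bp for regions in all 4 lists and 2710 bp for regions listed at 36 hpf only. In the band of the strongest 25%, the gap was 3657 bp for 226 8-somite-only regions and 2558 bp for 16017 regions in all 4 lists. In the next bands the difference was smaller, with 3033.5, 3118 and 3051 bp against 2420, 2536 and 2552.5 bp. From an 8-somite-only region, the median distance between midpoints was 11425 bp to the nearest region in all 4 lists, 33508 bp to the next 8-somite-only region and 66127 bp to the nearest region of 36 hpf only. The last is also set by their smaller number. No other region lay within 20 kb of 240 8-somite-only regions, nor within 50 kb of 15. These counts were not taken for other listings. Isolation was not particular to 8-somite-only regions, since the largest gap from a region in all 4 lists was 115315 bp. The most isolated 8-somite-only region was chr3:9055094-9055744, with a fold enrichment of 9.22 in WT and 8.33 in tp63-/- and 96975 bp to the nearest other region.

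Their neighbours were more often of the same stage than those of regions in all 4 lists. Over all regions, 8.18% were 8-somite-only, 28.1% held 8-somite peaks alone (in 1 or both genotypes) and 20.1% held 36 hpf peaks alone. The nearest region was another 8-somite-only region for 9.56% of 8-somite-only regions (9.02 to 10.1). The same held for 7.23% of regions in all 4 lists (6.99 to 7.49) and 6.81% of regions of 36 hpf only (6.27 to 7.39). An excess of nearest regions of the own kind was not particular to 8-somite-only regions. For regions of 36 hpf only it was 7.49% (6.92 to 8.09), against their 5.84% of all regions. For regions in all 4 lists it was 35.8%, against their 30.7% of all regions. The nearest region held peaks of 8-somite lists alone, in 1 or both genotypes, for 33.5% (32.6 to 34.4) of 8-somite-only regions and 23.3% (22.9 to 23.8) of regions in all 4 lists. It held 36 hpf peaks alone for 1997 of 10941 8-somite-only regions (18.3%, 17.5 to 19.0) and for 8208 of 41041 regions in all 4 lists (19.6 to 20.4%). A nearest region in all 4 lists was less frequent from 8-somite-only regions (27.4%) than from regions in all 4 lists (35.8%).

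Over longer distances both patterns were present. Another 8-somite-only region lay within 10 kb of 18.5% of the 8-somite-only regions and of 16.5% of regions in all 4 lists, a difference of 2.00 percentage points (1.20 to 2.82) that was positive on 18 of 25 chromosomes. A region of 36 hpf only lay within 10 kb of 11.2% and 14.5%, a difference of -3.36 points (-4.04 to -2.67), and this was negative on 25 of 25 chromosomes. Fewer neighbours were not particular to regions of 36 hpf only. A region in all 4 lists lay within 10 kb of 45.8% of 8-somite-only regions and of 56.7% of regions in all 4 lists. A touching 36 hpf peak takes a region out of the 8-somite-only set, whereas regions in all 4 lists hold such peaks. Within 2 kb, a region of 36 hpf only lay near 1.74% of 8-somite-only regions and 3.03% of regions in all 4 lists. How far this rule or the wider spacing of 8-somite-only regions sets the difference in 36-hpf-only neighbours was not tested. The rule is the same on every chromosome. Of the regions of 36 hpf only, 15.5% had an 8-somite-only region and 16.6% had another of their own kind within 10 kb. Within 50 kb, 6890 of 10941 8-somite-only regions had another of their kind (62.1 to 63.9%) and 41.6% had a region of 36 hpf only, against 58.1% and 49.3% of regions in all 4 lists.

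The difference in 36-hpf-only neighbours was negative in each band of the weaker rank, with -6.29 points (-9.12 to -2.07) in the strongest 25%, -3.45, -4.43 and -4.01 points in the next bands. The difference in 8-somite-only neighbours was 5.60 points (0.69 to 11.4) in the strongest 25% and declined to 1.38 points (-0.12 to 2.87) in the weakest, where the interval includes 0. In the strongest 25%, with only 226 8-somite-only regions, 21.7% had another of their kind within 10 kb. In the next bands this share was 19.3%, 19.2% and 17.5%. A region of 36 hpf only lay within 10 kb of 7.52% in the strongest band and of 11.2%, 10.7% and 11.6% in the next. Whether the bands differ was not tested. In every band, a touching 36 hpf peak takes a region out of the 8-somite-only set.

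**Figure D3:**
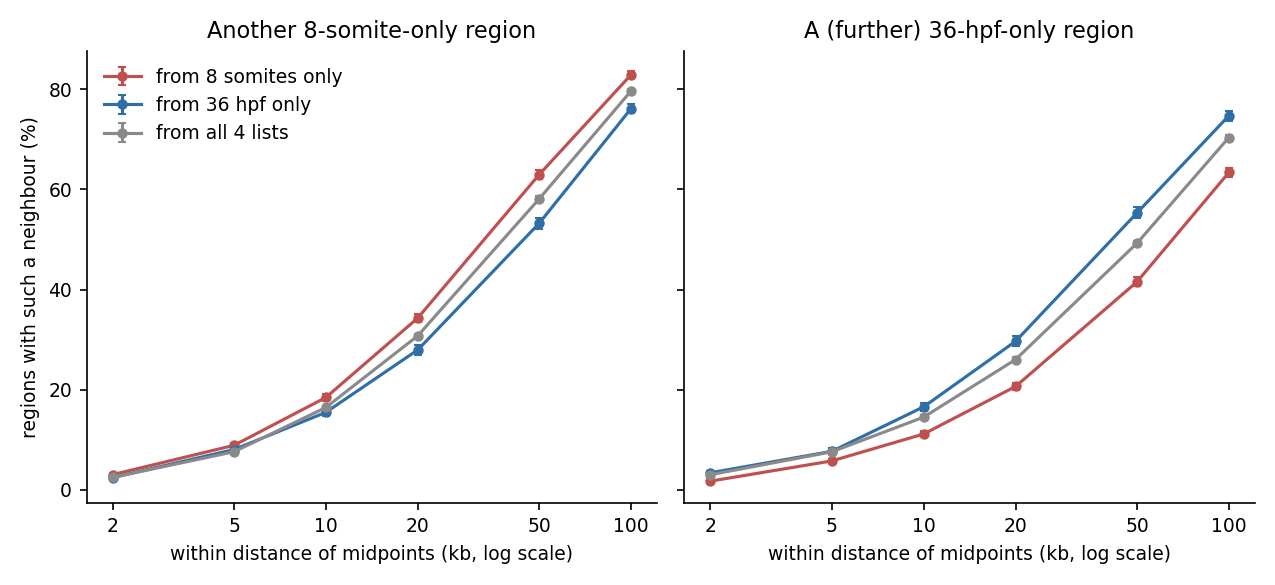
Share (%) of regions listed at 8 somites only, at 36 hpf only or in all 4 lists that had another 8-somite-only region (left) or a region of 36 hpf only (right) within a given distance between midpoints (kb, log scale), with 95% Wilson intervals. Within 50 kb, 41.6% of 8-somite-only regions had a region of 36 hpf only, against 49.3% of regions in all 4 lists and 55.3% of regions of 36 hpf only. Neighbours in all 4 lists, not drawn, were also less frequent from 8-somite-only regions (45.8% within 10 kb) than from regions in all 4 lists (56.7%). By the rule, a region that touches a 36 hpf peak is not 8-somite-only.

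The share of 8-somite-only regions also depended on the place along the chromosome. Chromosome 4 was left out here, and the last region of each chromosome was taken as its end. Of the regions with both 8-somite peaks, 18.6% (18.0 to 19.3) were 8-somite-only in the outermost 10% from either end and 15.6% (14.9 to 16.2) in the central part, from 40% to 50% of the chromosome length. The difference was -3.09 points (-4.01 to -2.18), and it was negative on 22 of 24 chromosomes. The decline was not even, with 17.5%, 18.6% and 17.8% in the parts between. The share of 36-hpf-only regions among those with both 36 hpf peaks went the opposite way and was higher at each step, from 11.3% (10.8 to 11.9) at the ends to 15.4% (14.7 to 16.0) in the centre, and was higher in the centre on 23 of 24 chromosomes.

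The difference was also present within bands of strength. For weaker ranks between 50% and 75%, 28.0% of regions at the ends and 19.9% in the centre were 8-somite-only, a difference of -8.07 points (-10.1 to -6.01). Between 25% and 50% the shares were 11.2% and 7.59%, and between 75% and 100% they were 43.0% and 38.0%. In the strongest 25%, where few regions were 8-somite-only, they were 1.36% and 0.852%, and the interval of that difference (-0.98 to 0.01) includes 0.

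Among chromosomes, the share was lowest on chromosome 22, at 13.2% (11.6 to 14.8, 222 of 1688 regions), and next on chromosome 25 at 15.2% (13.6 to 17.0). It was highest on chromosome 14, at 19.6% (18.1 to 21.3, 465 of 2372), followed by the analysed part of chromosome 4 at 19.5% (17.4 to 21.8), which does not differ from it beyond the intervals. Chromosome 22 had a share of 36-hpf-only regions of 16.9% (15.2 to 18.7), next to the 17.5% of chromosome 4. The shares of 8-somite-only regions moved with the strength of the peaks on a chromosome. The median weaker rank of regions with both 8-somite peaks was 49.0% on chromosome 14 and 50.2% on chromosome 4, which had the highest shares and the weakest ranks. It was 42.7% on chromosome 3 and 43.1% on chromosome 21, which had the strongest ranks and shares of 16.0% and 16.1%. On chromosome 22 it was 44.3%, against 46.0% over all chromosomes. Over the 25 chromosomes, which share the same lists, rank and share had a Pearson r of 0.61 and a Spearman rho of 0.67, given as a description, and the part of strength in the differences between chromosomes was not tested. Without chromosome 22 the difference between centre and ends was -3.10 points.

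**Figure D4:**
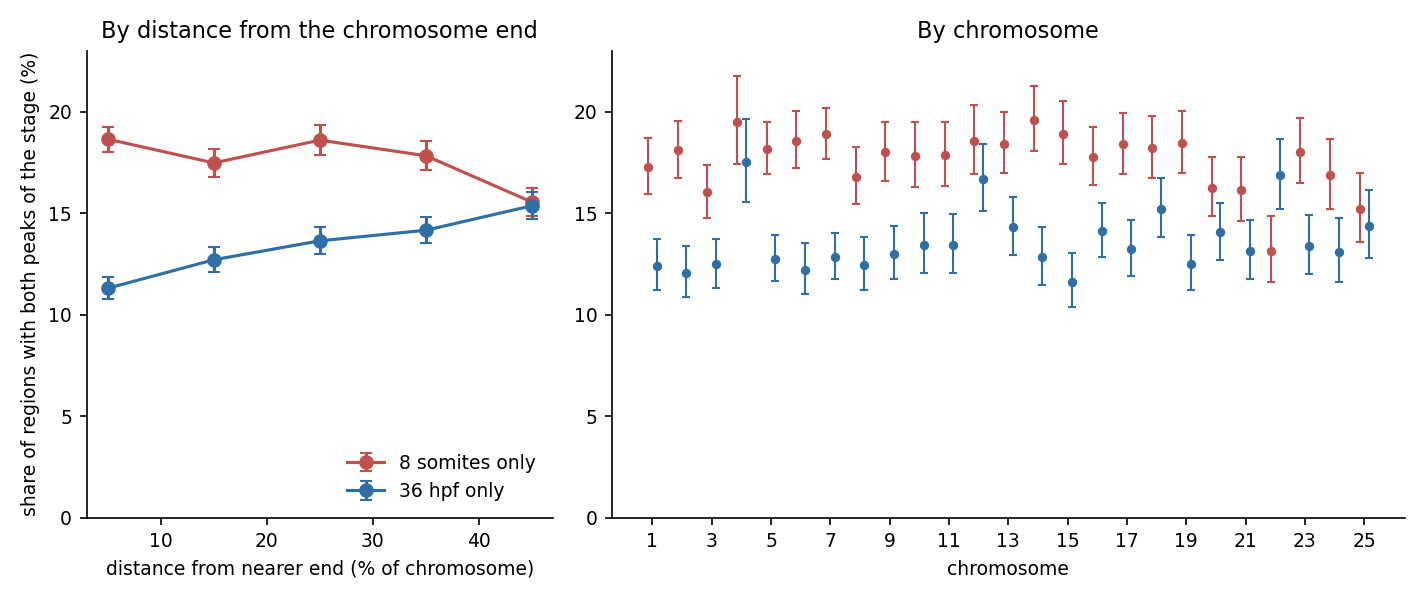
Left, share (%) of 8-somite-only regions among regions with both 8-somite peaks (red) and of 36-hpf-only regions among regions with both 36 hpf peaks (blue) by distance from the nearer chromosome end (% of chromosome length, chromosome 4 left out). Right, the same shares for each of 25 chromosomes, all with 95% Wilson intervals. The shares were 18.6% and 11.3% at the ends and 15.6% and 15.4% in the centre. Among chromosomes the red share was lowest on chromosome 22, at 13.2%.

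In genome order, 8960 of the 10941 8-somite-only regions (81.9%) had no region of their kind next to them on either side. They made up 8.18% of all regions, so a large share without such a neighbour is no property of their own. Among the others, 824 runs held 2 in a row, 97 held 3, 8 held 4 and 2 held 5. Both runs of 5 were on chromosome 13. The one at chr13:7097631-7136238 spanned 38608 bp, with a fold enrichment of 7.24 to 9.11 in WT and 5.65 to 8.53 in tp63-/-. The one at chr13:13846669-13866659 spanned 19991 bp, with 5.22 to 7.19 in WT and 5.51 to 8.09 in tp63-/-. The members of each run were of moderate strength in both genotypes.

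Counts were also taken in windows of 100 kb on a fixed grid. There, 6841 of the 10941 8-somite-only regions (62.5%) shared their window with at least 1 other of their kind. Such a share also depends on the number of regions per window, and whether it goes beyond that was not tested. Of 12835 windows with any region, 5957 held no 8-somite-only region, 4100 held 1 and 1878 held 2, while 50 held 5, 16 held 6 and 4 held 7. Across the 12835 windows, which share the same 4 lists, the count of 8-somite-only regions had a correlation of 0.12 with that of regions in all 4 lists and of -0.01 with that of regions of 36 hpf only. For comparison, regions of 36 hpf only and regions in all 4 lists correlated with 0.21. These weak correlations are given as a description only.

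The 4 windows with 7 regions each differed in their surroundings. In chr7:13200001-13300000, 7 of 16 regions were 8-somite-only, 5 were in all 4 lists and none was listed in both genotypes at 36 hpf only. Fold enrichment of the 7 was 4.12 to 9.88 in WT and 4.67 to 8.33 in tp63-/-, the strongest being chr7:13212048-13212382 with 9.88 and 8.33. In chr19:38000001-38100000, 7 of 22 regions were 8-somite-only and 9 were in all 4 lists. There, 3 of the 7 followed one another between chr19:38051698-38051941 (5.16 in WT, 7.76 in tp63-/-) and chr19:38056574-38056861 (6.67 and 6.37).

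In chr8:44300001-44400000, 7 of 24 regions were 8-somite-only and 3 were 36-hpf-only, so both kinds lay side by side. The strongest 8-somite-only region of this window, chr8:44387928-44388209, had a fold enrichment of 10.9 in WT and 6.81 in tp63-/-, and 2 of the 36-hpf-only regions lay within 10 kb of it. In chr4:4500001-4600000, 7 of 27 regions were 8-somite-only and none was 36-hpf-only, with 3.53 to 8.33 in WT and 3.91 to 8.36 in tp63-/-.

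Of the windows with 6, the one with the fewest other regions was chr19:44500001-44600000, where 6 of 11 regions were 8-somite-only and 1 was in all 4 lists. The 6 lay within 32362 bp. In genome order, chr19:44547694-44548041 had a fold enrichment of 7.04 in WT and 8.26 in tp63-/-, and chr19:44548981-44549245 had 6.07 and 6.02. The following 3, between chr19:44562998-44563199 and chr19:44564539-44564787, ran from 5.51 to 7.50 in WT and from 5.28 to 6.99 in tp63-/-. The last, chr19:44579692-44580055, had 6.81 and 6.93. The single region of this window in all 4 lists, chr19:44567301-44567684, had 8.09 and 7.13 at 8 somites and 8.52 and 8.07 at 36 hpf, so it was listed at both stages among regions that were not.

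**Figure D5:**
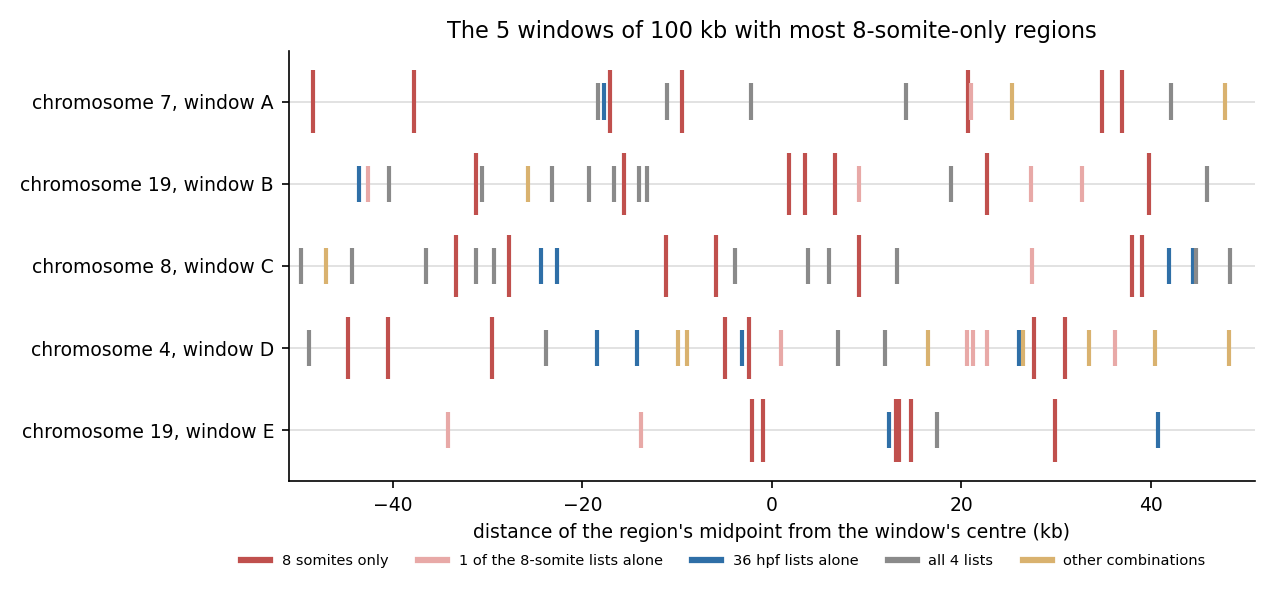
Positions of regions in the 5 windows of 100 kb with most 8-somite-only regions, as the distance of each midpoint from the window's centre (kb). Tall red marks are 8-somite-only regions (7 in windows A to D, 6 in window E). Window E was taken from 16 windows with 6 as the one with the fewest other regions. Short marks are regions of other listings by color. Blue marks (36 hpf lists alone) number 1 to 4 among the 11 to 27 regions of a window. Such regions made up 20.1% of all regions, and the windows were chosen for their 8-somite-only regions.

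Close to the limits of the rule, 1333 of the 10941 8-somite-only regions lay less than 1 kb from a 36 hpf peak and 57 within 50 bp. Such closeness was not particular to them. Without regions less than 1 kb from a peak of the other stage, 9608 of 10941 8-somite-only and 6276 of 7802 36-hpf-only regions remained. The 8-somite-only region nearest to a 36 hpf peak was chr9:56520833-56521274, 2 bp from one of WT alone. It had a fold enrichment of 4.88 in WT and 5.27 in tp63-/- at 8 somites. It was followed by chr13:50150979-50151185 at 7 bp (4.84 and 4.01) and chr16:3084309-3084570 at 9 bp (7.54 and 8.27). The 57 had a median WT fold enrichment of 6.95. Just outside, 19 WT peaks at 8 somites that touched a tp63-/- peak overlapped a 36 hpf peak by 1 to 50 bp, with a median WT fold enrichment of 5.06. The one nearest to the limit, chr7:9176389-9176510, overlapped by 1 bp and had 2.59. Those at chr20:27508596-27508832 and chr6:49429435-49429755 overlapped by 5 bp and had 6.82 and 7.51. The IDR was between 0.09 and the limit of 0.1 in at least 1 genotype for 867 of the 8-somite-only regions. This count was not taken for other listings. The median -log10 IDR of 8-somite-only regions was 1.93 in WT and 1.64 in tp63-/-. In regions of all 4 lists it was 3.82 and 3.26, farther from the limit.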

How the data were processed

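ATAC-seq was done on 8 libraries of whole zebrafish embryos, 2 for each of 4 groups. The submitters' processing notes name Bowtie2, SAMtools and the GRCz10 (danRer10) assembly. The authors removed pairs with mates over 2 kb apart, shifted reads to the Tn5 cut and kept peaks by the irreproducible discovery rate (IDR) at 0.1, giving 1 list per group from both replicates. The peak caller was not given in the sources used here. The deposited lists give each peak a score, a fold enrichment (ratio), a -log10 p-value and a global IDR (as -log10), and also -log10 q-values and a local IDR that were not used. The score was tied for many peaks and not used for ranks. The study used more than 1 sequencing instrument without stating which library ran on which. The authors give a nominal read output for the sequencing, but not the depth reached by each library.

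Peaks were ranked by -log10 p, with ties broken by fold enrichment, and merged over the 4 lists. For a region with several peaks of a list, the best ranked was used. Distances were taken between midpoints, and gaps between edges. Shares have Wilson intervals, their differences Newcombe intervals and medians in the alternatives order-statistic intervals (95%). Regions named in the text are the 10 strongest at least 1 kb from a 36 hpf peak, the 5 highest and 5 lowest ratios in the upper 50% of both lists, the 5 windows of 100 kb with most members and those nearest to the limits. Regions named for isolation, a run or a place in a window, and the choice among windows with 6 by the fewest other regions, were added after values were seen. The regions and measures were chosen with earlier results of these data known. Merging gave the same 137841 regions as bedtools 2.31.1, and distances were tested on simulated data. Python 3.11.15, numpy 2.4.6, pandas 2.3.3, scipy 1.17.1 and matplotlib 3.10.9 were used.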

Additional observations from a re-analysis of the deposited data

How the results depend on the processing

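No paired analysis was possible because each list combines both replicates and carries no replicate columns, and for the same reason leaving out a replicate was not run. Motif, start site and gene list alternatives were not run, since sequence and annotation of GRCz10 were not used.

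The order of the stages was the result that reversed. There were 3139 more regions of 8 somites only than of 36 hpf only, and the difference was -3 and -27 at equal list sizes by -log10 p and by fold enrichment, 1659 and -560 for IDR limits of 0.05 and 0.01, and -18564 for the upper 50% of the 8-somite lists. These differences were added after seeing the data. The other results listed here kept their direction. The number of 8-somite-only regions fell to 6016 at an IDR of at most 0.01 and to 1890 for the upper 50% of the 8-somite lists. At that IDR only 42.7% of the regions overlapped one of the 10941, because 36 hpf peaks left the lists too. For the upper 50%, regions of 36 hpf only numbered 20454, since weaker 8-somite peaks no longer counted. In the same order of settings as follows, the share of regions with both 8-somite peaks that had no 36 hpf peak was 18.5% (overlap of at least 50% of both peaks), 15.6% (no peak of the other stage within 1 kb), 15.9% and 16.1% (equal list sizes by -log10 p and by fold enrichment), 17.3% and 16.1% (IDR of at most 0.05 and 0.01) and 5.65% (upper 50% of the 8-somite lists).

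Median fold enrichment in WT was 7.43 without a peak within 1 kb, 7.89 and 7.88 at equal list sizes, 7.90 and 9.11 at the stricter IDRs and 9.55 in the upper 50%. In tp63-/- it was 6.87 and 6.95, 7.17 and 8.24, and 8.66. The median log2 ratio of WT to tp63-/- was 0.19 by -log10 p and 0.20 by fold enrichment at equal list sizes. The share with a nearest region of the same kind was 10.4% without a peak within 1 kb, 10.6% and 10.1% at the stricter IDRs and 3.12% in the upper 50%, where fewer such regions remain to be met. Median distance to a region in all 4 lists was 12632 bp without a peak within 1 kb, 11827 and 13370 bp at equal list sizes, 12622 and 15855 bp at the stricter IDRs and 15166 bp in the upper 50%.

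The alternatives that follow were also chosen after seeing the data. The difference in 8-somite-only neighbours within 10 kb was 4.02 points without a peak within 1 kb and 3.25 points for the IDR limit of 0.05. It was 3.55 within 20 kb and 4.85 within 50 kb. The difference in 36-hpf-only neighbours was -1.59 points for an overlap of 50%, -1.85 without a peak within 1 kb, -4.18 at equal list sizes by fold enrichment, -4.13 at an IDR of at most 0.01 and -6.62 in the upper 50%. It was -1.82 within 5 kb, -5.38 within 20 kb and -7.71 within 50 kb. The difference between chromosome centre and ends was -2.04 points without a peak within 1 kb, -1.91 at equal list sizes by fold enrichment and -1.54 in the upper 50%.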
